A study of Canis lupus familiaris with 11 samples.

Results

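The nuclear genes for subunits of the mitochondrial respiratory chain and ATP synthase were followed in MDCKII cells, an epithelial line from dog kidney that grows as a sheet. Members were the protein-coding rows of the deposited count table, outside the mitochondrial chromosome, whose gene name begins as the subunits of complexes I to V are named (NDUFA, NDUFB, NDUFC, NDUFS or NDUFV with a number, SDHA to SDHD, UQCR, COX4 to COX8, ATP5). The rule used names only and no measured value, apart from keeping the row with more reads where a symbol had several, which applied to NDUFS8. It found 55 genes of 26178 in the table. Complex I had 30 of them, complex II 2, complex III 8, complex IV 9 and complex V 6.

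The series title asks how lateral compression affects an epithelium and what part lamin A plays. The 11 RNA libraries fall into 4 groups. WT control cells (3 libraries) were MDCKII cells grown to a confluent monolayer over 3 to 4 d, and WT compressed cells (3 libraries) were grown likewise, compressed from the side and collected after 2 h of recovery. LMNA KO control cells (2 libraries) and LMNA KO compressed cells (3 libraries) were a derivative of the same line lacking LMNA, the gene of lamins A and C, treated in the same 2 ways. Not given in the sources used here is whether the KO line is a single clone. The labels name no sham handling or recovery for the controls, so compression cannot be told apart from handling or the recovery time. Nor do they call the replicates separate cultures: the p-values rest on the spread between the libraries at hand, which may be technical.

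The respiratory chain passes electrons from nutrients to oxygen and pumps protons across the inner mitochondrial membrane. Complex I takes electrons from NADH and complex II from succinate, complex III hands them on to cytochrome c, complex IV passes them to oxygen, and complex V, the ATP synthase, lets the protons flow back to make ATP. Each complex except complex II also holds subunits made from mitochondrial DNA, so its assembly needs genes from both genomes, and kidney tubule epithelium depends strongly on this chain for ion transport.

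Library totals ran from 10420214 to 17999623 counts, and 50 of the 55 members had enough reads for the test, as did 13560 genes of the whole table. LMNA, checked first, stood at 679 to 1208 CPM (counts scaled to a common library size) in the WT libraries and at 25.5 to 51.8 CPM in the KO libraries, as labelled. Summed epithelial markers (CDH1, EPCAM, KRT8, KRT18, OCLN, TJP1) ranged from 3213 to 5263 CPM, while fibroblast and smooth muscle, endothelial and immune marker sums reached at most 17.4, 4.33 and 11.8 CPM, with 2 of 7, 0 of 5 and 2 of 6 markers at 0 in every library. The kidney tubule markers PAX8, PAX2 and CDH16 summed to 255 to 428 CPM in WT control and 118 to 170.1 CPM in WT compressed libraries, and to 215 to 226 and 145 to 247 CPM in KO control and KO compressed libraries. The part of these tubule marker levels in the results that follow was not tested. Of the 11 libraries 3 stood apart in a principal component analysis of the 500 genes that varied most, WT compressed replicate 3 and KO compressed replicate 2 on the first component and WT control replicate 1 on the third. Counts and medians over the members are given with and without these 3 libraries, as are single genes whose values they move. The fit without them was added after the data were seen. Leaving out libraries because they lay apart narrows the spread that the p-values of this fit rest on, so its calls are descriptions.

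Some member rows were not where the subunit's reads lay. In this table a second row, without a gene name but with a protein match to the same subunit, held the counts of some members. The member row held under 50% of the reads assigned to its subunit for 5 members and over 95% for 46. ATP5A1, named for the alpha subunit of the ATP synthase, lay on chromosome 31 of the CanFam3.1 build with 3.09 to 7.54 CPM and held 0.343% of that subunit's reads, while an unnamed row on chromosome 7 held 1248 to 1669 CPM. The COX7B row on chromosome 17 held 0.499% of the reads of that complex IV subunit and stood at 0.124 to 1.11 CPM, against 57.4 to 144 CPM for an unnamed row on chromosome X. NDUFC1, a complex I subunit, and UQCRB, a complex III subunit, had 0 reads in every library on their named rows. Unnamed rows matched to NDUFC1 and UQCRB held 64.6 to 165 CPM and 77.4 to 124 CPM. For NDUFS4 the named row on chromosome 6 took between 6.29% and 30.3% of the reads by library, and for NDUFB6 the named row on chromosome 22 took between 40.7% and 67.3%. Of these, the named rows of COX7B, NDUFB6, NDUFC1 and NDUFS4 span no more of the genome than their own length, so that they have no intron. Of the 55 symbols, 47 were on the same chromosome in RefSeq's table for the UU_Cfam_GSD_1.0 assembly, 3 (ATP5A1, NDUFB6, NDUFS4) on another and 5 were not in it. Counting could split reads between such copies, so the values of ATP5A1, COX7B, NDUFB6 and NDUFS4 are uncertain. ATP5SL also came in by its name, but its protein match is DMAC2, an assembly factor of complex I rather than an ATP synthase subunit. For the COX7A2 row the protein match was SEC61G, a protein transport gene, while its domain match was to cytochrome c oxidase subunit VII, so the values of this row are uncertain too.

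**Figure D1:**
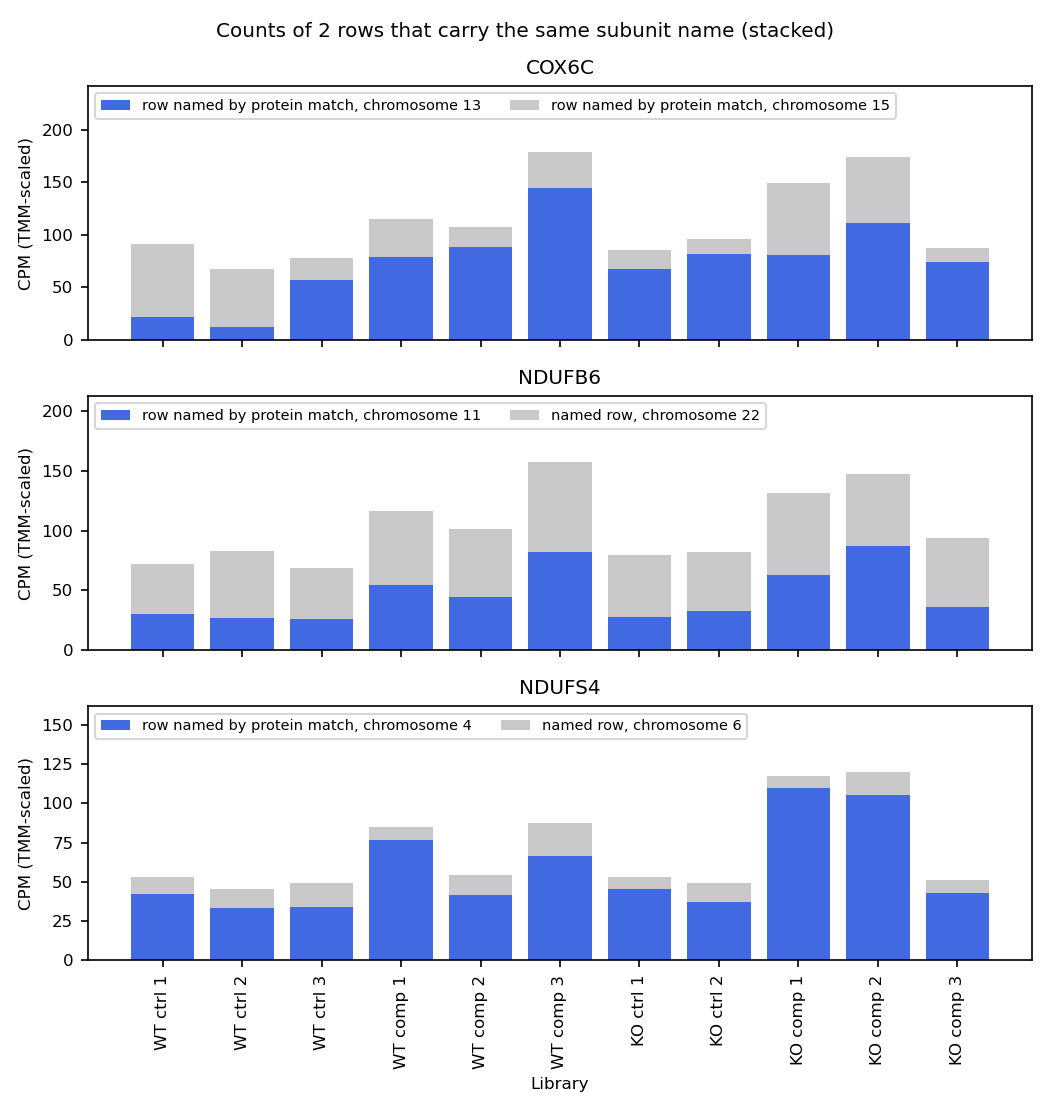
Bars give TMM-scaled CPM in each of the 11 libraries for the rows assigned to COX6C, NDUFB6 and NDUFS4 by name or protein match, stacked by row and chromosome. The division between the rows differs from library to library: for COX6C the chromosome 13 row held between 18.6% and 85.5% of the sum.

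Levels between genes were compared per length, as the deposited FPKM (fragments scaled to library size and to the length given for the gene), in the 3 WT control libraries. Of the 50 tested members, 46 lay above the median of all tested genes, 10.95 FPKM. The median tested member stood at 77.6 FPKM in complex I, 145 in complex II, 213 in complex III, 34.5 in complex IV and 203 in complex V. The complex IV median takes in the COX7B and COX4I2 rows and leaves out subunits on unnamed rows, COX6A1 and COX6B1 among them. That of complex V takes in the ATP5A1 and ATP5SL rows. These medians describe the named rows and do not rank the complexes. ATP5D, the delta subunit of the ATP synthase, had the highest level of all members, 609.6 ± 209 FPKM (SD, n = 3). Next came UQCRQ, a small complex III subunit, at 545 ± 61.6 FPKM, and COX4I1, the regulatory subunit 4 of complex IV, at 455 ± 52.6 FPKM. ATP5D lay below UQCRQ in WT control replicate 1 and above it in replicates 2 and 3, so their order differed between libraries. UQCRQ lay above COX4I1 in each of the 3 libraries, at 481, 604 and 549 against 395, 492 and 478 FPKM. In complex I the highest level was that of NDUFA11, an accessory subunit of the membrane arm, at 362 ± 138 FPKM, and the lowest tested was that of NDUFS5, an accessory subunit on the intermembrane side, at 12.8 ± 0.341 FPKM. In complex II the flavoprotein SDHA stood at 161 ± 22.8 FPKM and the membrane anchor SDHC at 129.7 ± 11.5 FPKM. SDHA lay above SDHC in each of the 3 libraries, at 136, 181 and 166 against 116, 136 and 137 FPKM. The lowest tested rows elsewhere were UQCR10 in complex III at 22.2 ± 4.37 FPKM, COX4I2 in complex IV at 0.874 ± 0.741 FPKM and the ATP5A1 row at 2.14 ± 0.253 FPKM. The level per length depends on the length the authors assigned, which was 4223 bases for NDUFS5 and 2645 for UQCR10 but 168 for UQCR11.

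**Figure D2:**
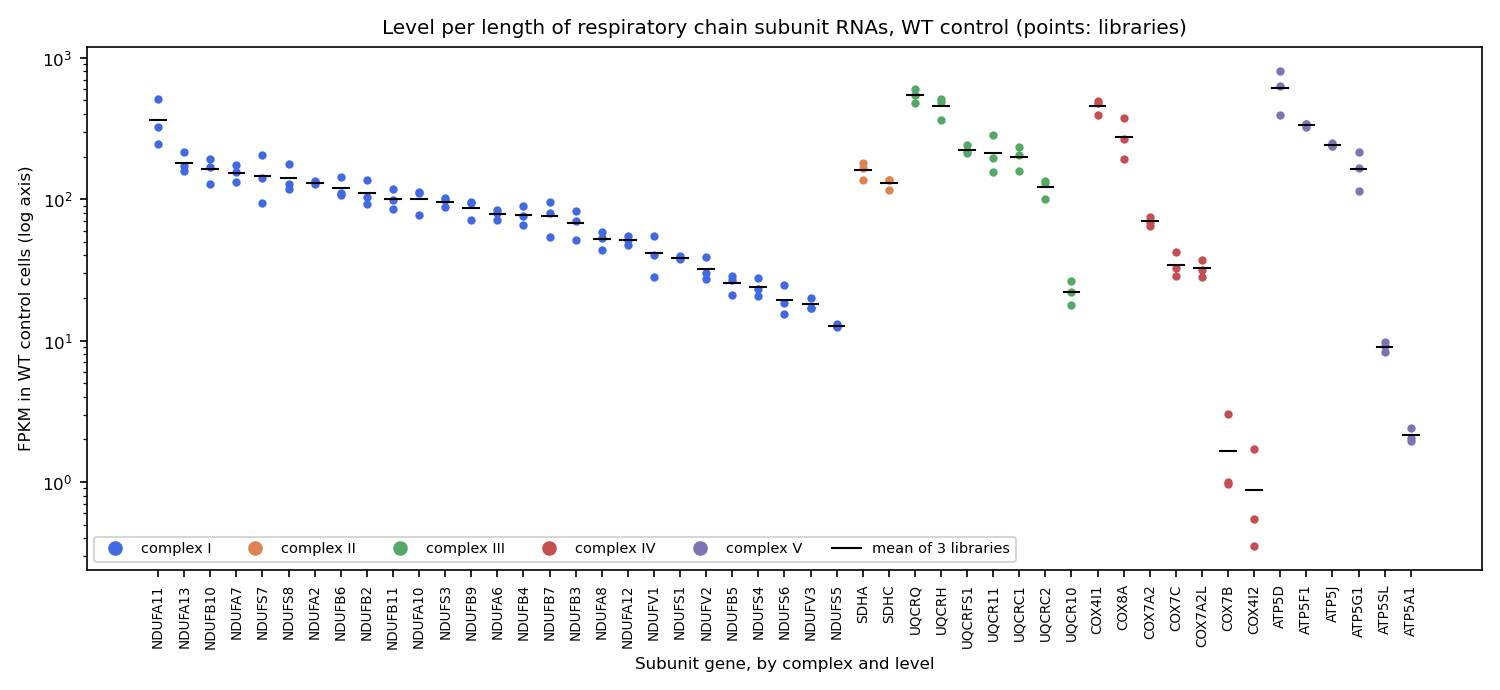
Points give the FPKM of each member in the 3 WT control libraries on a log axis, with the mean as a line, ordered by complex and level; rows with an FPKM of 0 in any of the 3 libraries are not drawn. Most members lie above 10.95 FPKM, and the 4 that do not are the COX7B, COX4I2, ATP5SL and ATP5A1 rows.

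Several complex IV subunits come in a ubiquitous and a tissue-restricted form. COX4I1, the ubiquitous form, ran from 302 to 451 CPM over the 11 libraries, and COX4I2, the form linked to lung and low oxygen, had 0 to 17 reads per library. COX7A2, the form of non-muscle tissue, ran from 149 to 277 CPM, and the heart and muscle form COX7A1 had 0 reads in every library. The muscle form COX6A2 also had 0 reads, while the row matched to its ubiquitous partner COX6A1 ran from 184 to 304 CPM. A count of 0 allows up to 3 counts, or 0.288 CPM in the shallowest library, and such limits cover counting error only. NDUFA4L2, a paralogue of NDUFA4 induced by low oxygen, had 1 read in all, against 205 to 394 CPM on the row matched to NDUFA4. COX8A, the ubiquitous subunit 8, ran from 103 to 198 CPM. COX6B1 was found by protein match at 123 to 181 CPM. No row was found for COX6B2 or COX8C, so their levels are not known here. All 3 genes of the ATP synthase c-ring were read: ATP5G1 (ATP5MC1) at 164 ± 50.3 FPKM, ATP5MC2 at 137 ± 21.1 FPKM and ATP5MC3 at 539 ± 85.4 FPKM in WT control cells.

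Together the members took 0.454% to 0.649% of each library's counts. The group means of this share were 0.547% ± 0.088 in WT control (SD, n = 3), 0.561% ± 0.026 in WT compressed (n = 3), 0.557% ± 0.015 in KO control (n = 2) and 0.576% ± 0.065 in KO compressed cells (n = 3), which overlap. Each library was also described by its median member, as log2 CPM minus the gene's mean over libraries. It was lowest in WT control replicate 1, at -0.32, and highest in KO compressed replicate 1, at 0.28, and WT compressed replicate 3 followed at 0.20. The 3 WT control libraries differed by more among themselves (-0.32, 0.06 and -0.07) than the means of the groups, -0.11, 0.06, -0.07 and 0.09. Members also scattered more within some libraries than others: the SD over members of these centred values was 0.43 in both WT compressed replicate 3 and KO compressed replicate 2 and 0.42 in WT control replicate 2, against 0.14 in WT compressed replicate 2. For the 47 members with a mean of at least 5 CPM, the highest library exceeded the lowest by a median of 1.77-fold. The ratio was under 2-fold for 31 of them, from 1.25-fold for UQCRFS1, the Rieske iron-sulphur subunit of complex III, up to 3.78-fold for ATP5D.

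**Figure D3:**
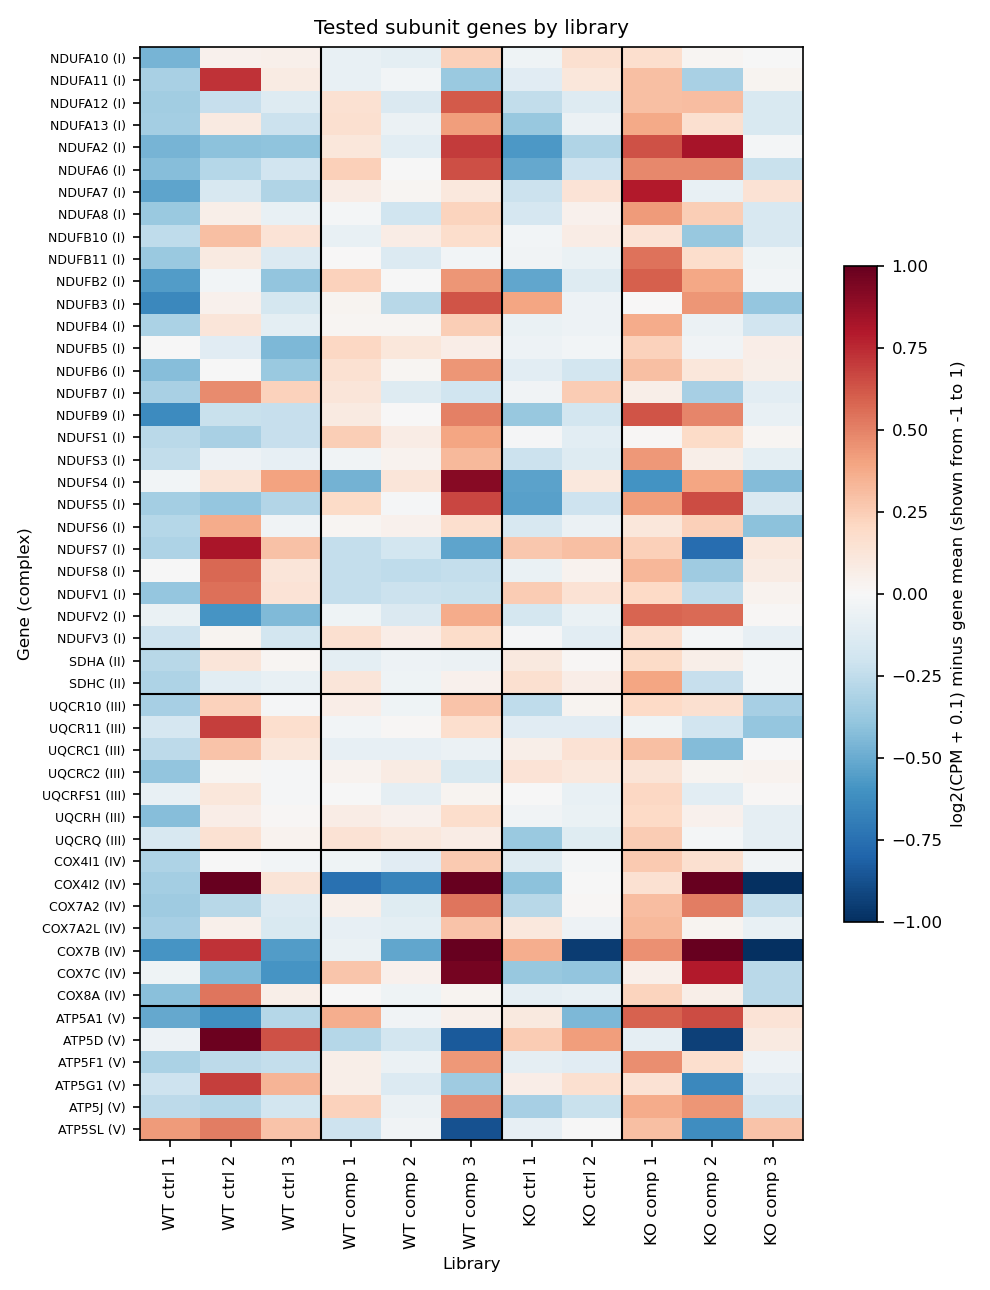
Each cell gives log2(CPM + 0.1) of a tested member minus its mean over the 11 libraries, shown from -1 to 1, with libraries in columns by group and genes in rows by complex. WT control replicate 1 is low for most genes, while WT compressed replicate 3 and KO compressed replicate 2 are high for COX7C, NDUFA2 and NDUFS5 and low for ATP5D, NDUFS7 and ATP5SL.

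After compression in WT cells 1 member passed the threshold, while many more had libraries that did not overlap. Of the 50 tested members 1 rose, NDUFS1, and 0 fell, in edgeR's quasi-likelihood test with Benjamini-Hochberg adjustment over all 13560 genes at 0.05. Across all genes 6.25% were called, 3.85% as higher and 2.4% as lower, so the members' share, 2%, was below the background. At an unadjusted p under 0.05 the members' share was 32% (16 of 50), beside 31.8% of all genes. The median member had a log2 fold change of 0.17, beside -0.02 for all genes, and 34 of 50 were positive. Without the 3 libraries that stood apart this median was -0.018, with 24 of 48 positive, and 8 members were called, 2 higher and 6 lower, where 26% of all genes were called. Libraries of the WT groups did not overlap for 17 members higher and 3 lower after compression, or 34% and 6% of members. Of all genes 21.2% and 20.8% were so.

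NDUFS1 (ENSCAFG00000013333, chr37:14680494-14711942) encodes the largest subunit of complex I, which carries iron-sulphur clusters of the arm that oxidises NADH. It stood at 190.5, 183 and 195 CPM in the WT control libraries and at 272, 241 and 301 CPM in the WT compressed libraries. All 3 compressed libraries lay above all 3 controls. The log2 fold change was 0.52 ± 0.13 (SE; edgeR adjusted p = 0.0448). The KO control libraries, at 228 and 213 CPM, lay between the WT groups, and the KO compressed libraries stood at 231, 263 and 232 CPM, above both KO controls by 0.13 ± 0.15 on the log2 scale (edgeR adjusted p = 0.834). The call in WT cells sat at the threshold: leaving out KO control replicate 1 or 2 gave an edgeR adjusted p of 0.0792 or 0.0795. Leaving out WT compressed replicate 1, 2 or 3 gave 0.132, 0.0512 or 0.192, and leaving out WT control replicate 2 or 3 gave 0.128 or 0.120. Over all 11 such fits the log2 fold change kept between 0.44 and 0.59, and without the 3 libraries that stood apart it was 0.44 ± 0.12 (edgeR adjusted p = 0.0192).

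**Figure D4:**
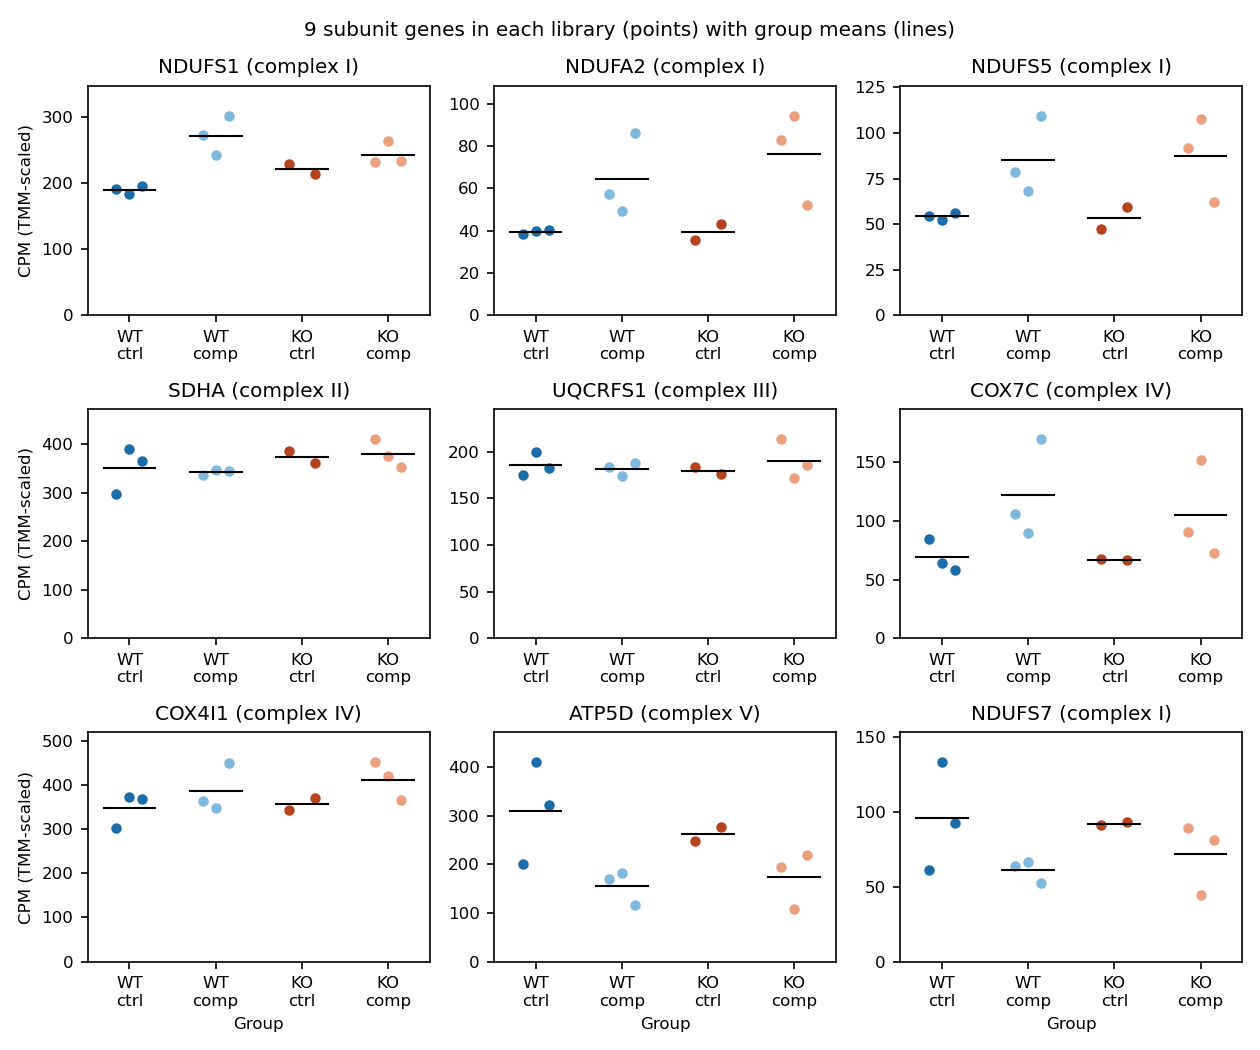
Points give the TMM-scaled CPM of 9 members in each library by group, with group means as lines and axes from 0. NDUFS1 is higher in all 3 WT compressed than in all 3 WT control libraries, SDHA and UQCRFS1 lie level across the groups, and ATP5D and COX7C part the groups in opposite directions with a wide spread.

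Complex I has core subunits, those with bacterial counterparts, and accessory subunits that surround the core. The 21 tested accessory rows had a median log2 fold change of 0.31 after compression in WT cells, with 18 of 21 positive. Of all genes 48.5% were positive in that fit. Without the 3 libraries that stood apart the median of the accessory rows was 0.11, with 12 positive. Among core subunits NDUFS3 and NDUFV2 had positive values, 0.24 ± 0.17 and 0.43 ± 0.20 (edgeR adjusted p = 0.336 and 0.156), and NDUFS8 and NDUFV1 negative ones, -0.50 ± 0.19 and -0.38 ± 0.20 (edgeR adjusted p = 0.106 and 0.219). NDUFA2, an accessory subunit of the peripheral arm, stood at 38.5, 40.0 and 40.2 CPM in WT control and 57.4, 49.5 and 86.2 CPM in WT compressed libraries. In the KO groups NDUFA2 stood at 35.6 and 43.1 CPM against 82.7, 94.2 and 52.3 CPM. The groups did not overlap in either genotype, and the log2 fold changes were 0.70 ± 0.24 in WT (edgeR adjusted p = 0.0768) and 0.96 ± 0.27 in KO cells (edgeR adjusted p = 0.773), neither past the threshold. NDUFS5 had a like course, at 54.3, 52.5 and 56.1 CPM in WT control and 78.3, 68.0 and 109 CPM in WT compressed libraries (log2 fold change 0.65 ± 0.22; edgeR adjusted p = 0.0760). The WT values of NDUFA2 and NDUFS5 were 0.42 and 0.43 without the 3 libraries that stood apart. NDUFS7, a core subunit near the ubiquinone site, stood at 61.2, 133 and 93.0 CPM in WT control and 64.3, 66.7 and 52.7 CPM in WT compressed libraries, which overlap, and its log2 fold change was -0.65 ± 0.28 (edgeR adjusted p = 0.131). NDUFS7 was called lower without the 3 libraries that stood apart, with a log2 fold change of -0.79 ± 0.16 (edgeR adjusted p = 0.00533), as were the core subunits NDUFV1 (-0.58 ± 0.15) and NDUFS8 (-0.61 ± 0.16), with edgeR adjusted p values of 0.0131 and 0.0166.

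Neither tested member of complex II, which also works in the citric acid cycle, passed the threshold. SDHA stood at 297, 391 and 365 CPM in WT control and 336, 347 and 344 CPM in WT compressed libraries, the compressed libraries lying inside the range of the controls (log2 fold change -0.04 ± 0.14; edgeR adjusted p = 0.866). SDHC stood at 59.9, 69.2 and 70.7 CPM against 80.7, 72.1 and 76.7 CPM, without overlap but with a log2 fold change of only 0.20 ± 0.17 (edgeR adjusted p = 0.427). The iron-sulphur subunit SDHB and the anchor SDHD were read from rows known by protein match, with log2 fold changes of 0.11 ± 0.17 and 0.37 ± 0.16 (edgeR adjusted p = 0.671 and 0.130). SDHB is split over 2 rows, of which the larger held 67.2% of its reads. On their sum its log2 fold change was 0.14 ± 0.15 (edgeR adjusted p = 0.534).

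All 7 tested members of complex III had log2 fold changes between -0.22 and 0.20 in WT cells. The smallest p was that of UQCRH, the hinge protein beside cytochrome c1, at 0.20 ± 0.15 (edgeR adjusted p = 0.388), with 99.3, 139 and 134 CPM in WT control and 140.0, 137 and 150.3 CPM in WT compressed libraries, which overlap. The UQCRH value was 0.06 without WT control replicate 1 and 0.02 without the 3 libraries that stood apart. UQCRFS1 was the steadiest member, at 175, 200.1 and 183 CPM in WT control, 184, 174 and 188 CPM in WT compressed, 184 and 176 CPM in KO control and 214, 171 and 186 CPM in KO compressed libraries. All 4 groups overlap for this gene. The core proteins UQCRC1 and UQCRC2 had log2 fold changes of -0.14 ± 0.18 and 0.11 ± 0.14 (edgeR adjusted p = 0.628 and 0.624).

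In complex IV the largest difference in WT cells was that of COX7C (chr21:20841183-20843212), a small subunit of the membrane part. It stood at 84.8, 64.5 and 58.0 CPM in WT control and 106, 90.1 and 169.8 CPM in WT compressed libraries. The compressed libraries lay above all controls, with WT compressed replicate 3 highest. The log2 fold change was 0.82 ± 0.28 and did not pass (edgeR adjusted p = 0.0774). It ranged from 0.50 without WT compressed replicate 3 to 0.99 when another library was left out, and without the 3 libraries that stood apart COX7C was called higher, by 0.68 ± 0.15 (edgeR adjusted p = 0.00748). COX4I1, the most abundant member of the complex, stood at 302, 373 and 368 CPM against 364, 347 and 450.4 CPM, which overlap (0.15 ± 0.15; edgeR adjusted p = 0.489). COX7A2 and COX7A2L, the latter a relative of COX7A2 that joins complexes III and IV, had 0.44 ± 0.21 and 0.18 ± 0.17 on the log2 scale (edgeR adjusted p = 0.167 and 0.471). COX4I1, COX7A2 and COX7A2L stood at -0.06, 0.17 and -0.04 without the 3 libraries that stood apart.

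The members of complex V parted most. ATP5D (ENSCAFG00000019536, chr20:57548051-57549669) stood at 200.3, 410.0 and 322 CPM in WT control and 170.2, 183 and 116 CPM in WT compressed libraries. All compressed libraries lay below all controls, with WT control replicate 1 the lowest of the controls. The log2 fold change was -0.99 ± 0.28 and missed the threshold (edgeR adjusted p = 0.0521). ATP5D was called lower without the 3 libraries that stood apart, at -1.05 ± 0.14 (edgeR adjusted p = 0.000926). That fit called 26% of all genes. ATP5G1, a c-ring gene, had a log2 fold change of -0.46 ± 0.23 (edgeR adjusted p = 0.189), and ATP5SL, the assembly factor, one of -0.74 ± 0.27 (edgeR adjusted p = 0.0883), with 28.3, 30.0 and 25.6 CPM against 18.2, 20.5 and 11.4 CPM. Both were called lower without the 3 libraries that stood apart, ATP5G1 at -0.56 ± 0.15 (edgeR adjusted p = 0.0159) and ATP5SL at -0.52 ± 0.18 (edgeR adjusted p = 0.0463). The stalk subunits ATP5F1 and ATP5J had positive values, 0.43 ± 0.16 and 0.48 ± 0.19 (edgeR adjusted p = 0.0954 and 0.102), and for both the WT libraries did not overlap. These values were 0.25 and 0.33 without the 3 libraries that stood apart. ATP5J stood at 79.2, 77.8 and 83.7 CPM in WT control and 112, 91.4 and 133 CPM in WT compressed libraries.

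Members on chromosome 20 were examined after their values were seen. These 8 (ATP5D, NDUFS7, UQCR11, NDUFA11, NDUFB7, NDUFA7, NDUFA13, UQCRC1) had a median log2 fold change of -0.22 after compression in WT cells, with 6 of 8 negative, and the 42 tested members elsewhere a median of 0.19. All 654 tested genes of chromosome 20 had a median of -0.38, with 511 negative, beside -0.02 for all genes. ATP5D, NDUFS7 and UQCR11 lie together at chr20:57289228-57549669, a stretch of 260.4 kb. In WT control replicate 2, which was highest for each of these 3 genes, they stood at 410.0, 133 and 48.0 CPM. Without the 3 libraries that stood apart the median was -0.41 for the 8 members, with 2 positive, and -0.36 for all genes of that chromosome. In KO cells the medians were -0.10 for the 8 members, 0.13 for the other 42 and -0.17 for all genes of chromosome 20. Across the 50 members, the log2 fold change in WT cells was not related to the row's length (Pearson r = 0.02, Spearman rho = -0.03) and weakly to its level per length (r = -0.16, rho = -0.26). These are descriptions over genes, which share libraries and are not independent.

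Compression in KO cells gave no member past the threshold. None of 50 members and 0 of 13560 genes (0%) were called by edgeR with Benjamini-Hochberg adjustment. DESeq2 called 0 members and 0.00549% of genes, and edgeR without the 3 libraries that stood apart 0 members and 0.0965% of genes. At an unadjusted p under 0.05 there were 7 members (14%), all 7 higher, beside 6.11% of all genes. The median member had a log2 fold change of 0.12, beside -0.004 for all genes, with 37 of 50 positive. It ran from 0.06 without KO compressed replicate 1 to 0.23 without KO compressed replicate 3, and was 0.17 with 37 of 48 positive without the 3 libraries that stood apart. Libraries did not overlap for 13 members higher and 2 lower, or 26% and 4% of members, where the shares of all genes were 13.5% and 14%. NDUFA2 had the smallest p of all members, with the values given above. The smallest p in the other complexes was that of COX7C at 67.4 and 66.7 CPM in KO control and 90.5, 152 and 72.6 CPM in KO compressed libraries (0.65 ± 0.32), of ATP5J (0.51 ± 0.21), of UQCRQ (0.30 ± 0.17) and of SDHC (-0.04 ± 0.19), with edgeR adjusted p from 0.773 to 0.967. The COX7C value was 0.28 without KO compressed replicate 2. KO compressed replicate 3 was the lowest of its group for NDUFA2, COX7C, ATP5J and UQCRQ. ATP5D stood at 247 and 278 CPM in KO control and 195, 109 and 220.4 CPM in KO compressed libraries, all compressed libraries lying below both controls (-0.59 ± 0.31; edgeR adjusted p = 0.773).

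The 2 genotypes share no library in these comparisons, so their fold changes can be set side by side. Over the 50 members the log2 fold changes of compression in WT and KO cells had a Pearson r of 0.78, and 39 had the same sign (78%), 30 of them higher and 9 lower in both. Over all 13560 genes r was 0.41 and 72.8% had the same sign. Without the 3 libraries that stood apart r was 0.68 over 48 members, with 33 of the same sign (68.8%), beside 0.21 and 58.5% over all genes. These are descriptions across genes that share libraries and a fit. WT compressed replicate 3 and KO compressed replicate 2, which stood apart on the same component, each belong to 1 of the 2 comparisons.

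**Figure D5:**
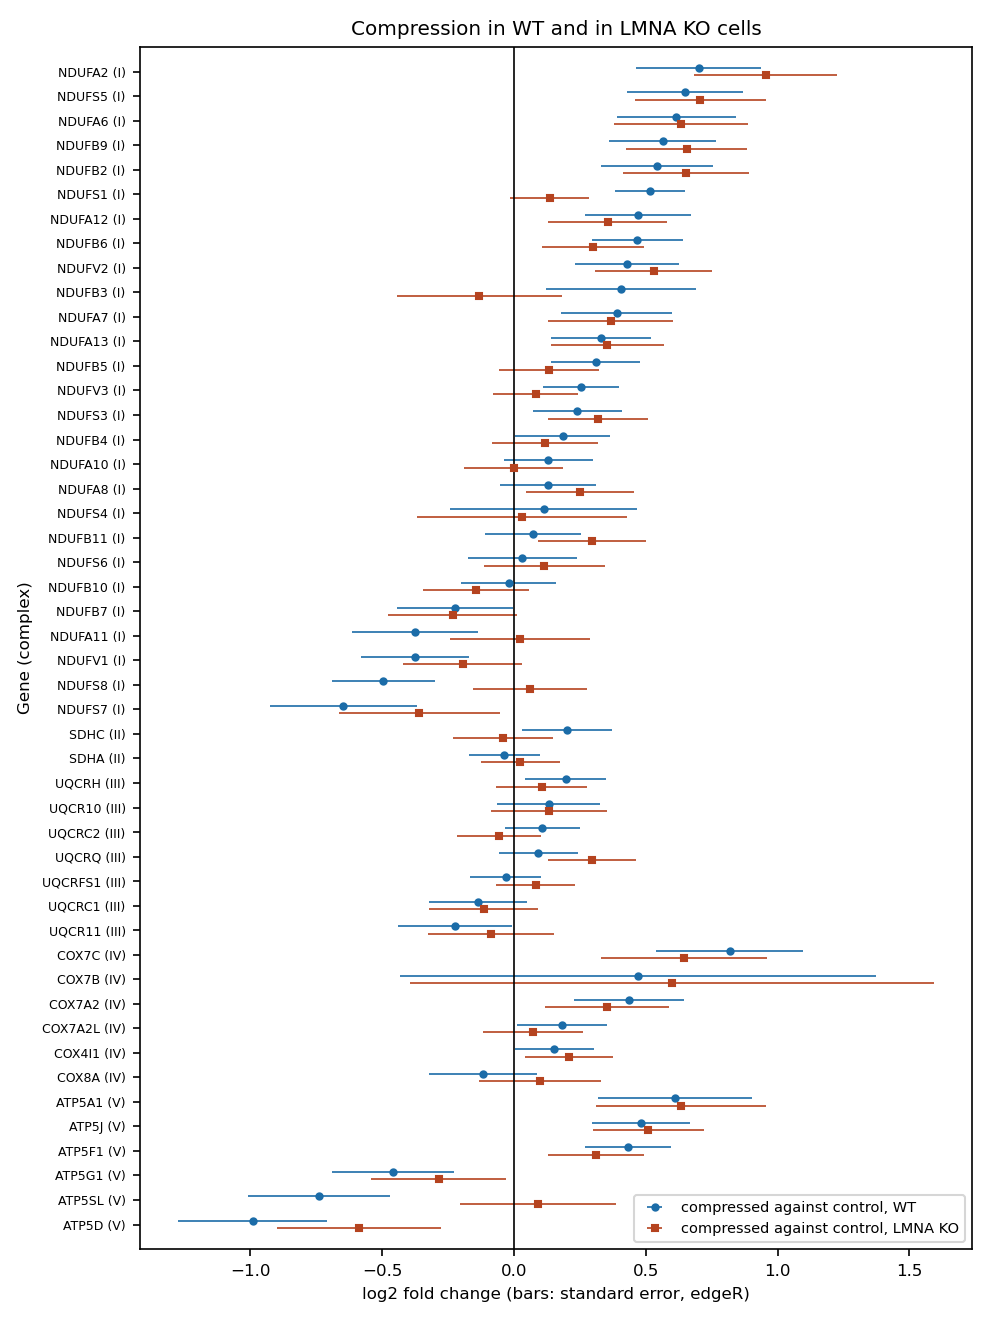
Symbols give the log2 fold change of compressed against control cells for 48 of the 50 tested members by complex, circles for WT and squares for LMNA KO cells, with bars of 1 standard error from edgeR; COX4I2, with 0 to 17 reads per library, is not drawn. NDUFA2, NDUFS5 and COX7C are positive and ATP5D, NDUFS7 and ATP5G1 negative in both genotypes, and most bars of the 2 genotypes overlap.

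The difference between the genotypes in their answer to compression was tested as an interaction. None of 50 members and 0 of 13560 genes (0%) were called by edgeR with Benjamini-Hochberg adjustment or by DESeq2, and 0 members but 4.79% of genes had an unadjusted p under 0.05. Without the 3 libraries that stood apart 0 members and 2.69% of genes were called. The median member difference, KO minus WT, was 0.04 on the log2 scale, and it was 0.18 with 40 of 48 positive without the 3 libraries that stood apart. It ran from -0.06 without WT control replicate 2 to 0.15 without KO compressed replicate 3. The smallest p in complex V was that of ATP5SL, which had a negative value in WT cells and stood at 19.9 and 21.0 CPM in KO control and 25.9, 13.6 and 25.7 CPM in KO compressed libraries (interaction 0.83 ± 0.40; edgeR adjusted p = 0.939). As an assembly factor of complex I, ATP5SL stands under complex V by its name only. For NDUFS1 the interaction was -0.38 ± 0.20 (edgeR adjusted p = 0.939), so its rise in WT cells was not shown to differ from the KO value. In the other complexes the smallest p belonged to SDHC (-0.24 ± 0.25), UQCRQ (0.20 ± 0.22) and COX8A (0.22 ± 0.31), at the same adjusted p. The SDHC value was -0.04 without the 3 libraries that stood apart.

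Loss of LMNA moved no member past the threshold in either state. Without compression 0 of 50 members were called by edgeR with Benjamini-Hochberg adjustment, where 0.339% of all genes were, and 0 had an unadjusted p under 0.05, beside 7.79% of genes. DESeq2 called 0 members and 0.867% of genes, and edgeR without the 3 libraries that stood apart 0 members and 5.95% of genes. Libraries did not overlap for 4 members higher and 1 lower in KO cells, where 16.9% and 15% of all genes were so. For 49 of the 50 members the log2 difference between KO and WT control cells was under 0.5 in size, and the median was 0.01. It was -0.06 with 15 of 48 positive without the 3 libraries that stood apart, and it ran from -0.07 without WT control replicate 1 to 0.13 without WT control replicate 2. The exception was COX4I2, at -1.07 ± 1.18, which was -0.16 without WT control replicate 2, the library with the most reads of this gene, 17. The smallest p in complex I was again that of NDUFS1 (0.22 ± 0.15), with both KO controls above all WT controls, in complex II that of SDHC (0.27 ± 0.19), in complex III that of UQCR11 (-0.39 ± 0.24) and in complex V that of ATP5SL (-0.45 ± 0.30), with edgeR adjusted p from 0.763 to 0.805. ATP5SL stands under complex V by its name only. The UQCR11 value was -0.12 without WT control replicate 2. After compression 0 of 50 members were called, where 0.789% of all genes were, and 0 had an unadjusted p under 0.05, beside 11.3% of genes. DESeq2 called 0 members and 2.44% of genes, and edgeR without the 3 libraries that stood apart 0 members and 5.37% of genes. Libraries did not overlap for 1 member higher, SDHA, and 1 lower, UQCR11, where 7.92% and 7.82% of all genes were so. All 50 differed by less than 0.5 on the log2 scale, with a median of 0.03. This median was 0.13 with 36 of 48 positive without the 3 libraries that stood apart, and it ran from -0.09 without KO compressed replicate 1 to 0.14 without WT compressed replicate 3. NDUFV2, a core subunit of complex I, had the smallest p (0.33 ± 0.20; edgeR adjusted p = 0.575), and SDHA (0.15 ± 0.14), UQCR11 (-0.25 ± 0.22), COX7C (-0.22 ± 0.28) and ATP5SL (0.38 ± 0.27), placed in complex V by name, had the smallest in the other complexes. These comparisons share libraries with those of compression.

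Further rows of the chain carry no gene name and were known only by a protein match. They hold subunits outside the members or are other rows of a member's subunit, as for NDUFB6 and NDUFC1. Of 37 such unnamed rows 32 were tested. After compression in WT cells 4 of these 32 (12.5%) rose and 0 fell, where 3.85% of all genes were called higher. They were matched to COX6C (1.77 ± 0.43), NDUFB6 (1.12 ± 0.29), ATP5ME (1.03 ± 0.26) and NDUFC1 (0.85 ± 0.22), as log2 fold changes with edgeR adjusted p from 0.0428 to 0.0456. COX6C is split between rows on chromosomes 13 and 15. The sum of both stood at 91.5, 67.2 and 78.1 CPM in WT control and 115, 108 and 179 CPM in WT compressed libraries. On that sum the log2 fold change was 0.76 ± 0.25 and did not pass (edgeR adjusted p = 0.0685). The 2 NDUFB6 rows together stood at 72.0, 82.8 and 69.0 CPM in WT control and 117, 101 and 157 CPM in WT compressed libraries, all compressed libraries lying above all controls, and the sum rose by 0.75 ± 0.20 (edgeR adjusted p = 0.0471). Where all rows of a subunit were summed, 76 subunits were tested and 5 rose (6.58%), NDUFS1, NDUFB6, NDUFC1, ATP5ME and ATP5PO, and 0 fell. The median log2 fold change was 0.19. No share of all genes is at hand for the summed fit, and in the reported fit 3.85% were called higher. ATP5PO, a stalk subunit, was matched by 5 rows, 3 of them with at least 10 reads on average, and of the 2 on chromosome 31 the first held from 5.51% to 93.3% of their joint counts by library, so its value is uncertain. Left out in turn, each of KO control replicates 1 and 2, WT compressed replicates 1, 2 and 3 and WT control replicate 2 took the count of 4 to 0, and WT control replicate 3 took it to 1. Without KO compressed replicate 2 it was 10, without KO compressed replicate 3 it was 7, and without the 3 libraries that stood apart it was 7 higher and 2 lower. It was 10 with DESeq2 and 0 with each limma fit and with the replicate number as a block. Of all genes 22.7% were called without KO compressed replicate 2, 26% without the 3 libraries and 20% with DESeq2. No such share is at hand without KO compressed replicate 3, so that count has no background beside it. In the other 4 comparisons 0 of these 32 rows were called. ATP5ME, a membrane subunit of the ATP synthase, had the smallest p among them for compression in KO cells (1.00 ± 0.30; edgeR adjusted p = 0.773) and for KO against WT both without (-0.90 ± 0.29; 0.418) and after compression (-0.93 ± 0.25; 0.141). COX6C had the smallest p in the interaction (-1.52 ± 0.62; edgeR adjusted p = 0.939).

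Among genes that build, regulate or feed the chain some rose after compression in WT cells. Of 123 genes found from 10 lists (assembly factors of complexes I to V, cytochrome c and ubiquinone synthesis, regulators of mitochondrial biogenesis, the citric acid cycle with pyruvate dehydrogenase, nucleotide and phosphate exchange and 2 subunits outside the naming rule) 120 were tested. After compression in WT cells 13 (10.8%) rose and 0 fell, where 3.85% and 2.4% of all genes did. CYCS, cytochrome c, the electron carrier between complexes III and IV, stood at 446, 370.2 and 385 CPM in WT control and 595, 563 and 725 CPM in WT compressed libraries (0.65 ± 0.14; edgeR adjusted p = 0.0410). HIGD1A, which binds complex IV, stood at 229.9, 238 and 246 CPM against 369.9, 328 and 501 CPM (0.75 ± 0.16; edgeR adjusted p = 0.0410). TFAM, the factor that packages and transcribes mitochondrial DNA, stood at 22.6, 22.3 and 16.7 CPM against 39.4, 35.2 and 37.3 CPM (0.86 ± 0.19; edgeR adjusted p = 0.0410). For each of these 3 genes all compressed libraries lay above all controls. The others were the assembly factors LYRM7 (1.29 ± 0.26), CMC1 (1.08 ± 0.21), SDHAF4 (1.01 ± 0.27) and TMEM70 (0.69 ± 0.17), COQ7 of ubiquinone synthesis (0.97 ± 0.26), MTERF1 (1.33 ± 0.29), GABPA (0.74 ± 0.20) and TFB2M (0.53 ± 0.13) of mitochondrial gene control, the pyruvate carrier MPC1 (1.14 ± 0.26) and SUCLG2 of the citric acid cycle (0.71 ± 0.16). None of the 17 tested assembly factors of complex I passed. In the other 4 comparisons 0 of the 120 were called, and the smallest p belonged to UQCC2, a complex III assembly factor, for compression in KO cells (0.80 ± 0.22; edgeR adjusted p = 0.773), to MTERF1 for KO against WT control (0.93 ± 0.31; 0.425), and to TFAM after compression (-0.64 ± 0.19; 0.186) and in the interaction (-0.999 ± 0.288; 0.939). In KO cells the compression values of CYCS, HIGD1A and TFAM were 0.08 ± 0.16, 0.26 ± 0.17 and -0.14 ± 0.21. The count of 13 fell to 0 without any 1 of KO control replicates 1 and 2, WT compressed replicates 1, 2 and 3 or WT control replicates 2 and 3, it was 23 higher and 6 lower without KO compressed replicate 2 and 19 higher and 3 lower without WT control replicate 1. Without the 3 libraries that stood apart it was 22 higher and 12 lower, with DESeq2 22 higher and 3 lower, and 0 with each limma fit and with the replicate number as a block. Of all genes 12.7% were called higher and 13.3% lower without the 3 libraries, and 9.7% and 10.3% with DESeq2. These shares were 10.7% and 12.0% without KO compressed replicate 2 and 6.77% and 3.44% without WT control replicate 1.

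The 13 subunits encoded by mitochondrial DNA, partners of the members in complexes I, III, IV and V, took 2.03% to 4.68% of each library's counts. Their median log2 fold change after compression was -0.32 in WT cells and 0.56 in KO cells, with 0 of 13 called in each by edgeR and 4 lower in WT cells by DESeq2. Of all genes DESeq2 called 10.3% lower in WT cells. At an unadjusted p under 0.05 there were 5 of the 13 subunits in WT and 10 of 13 in KO cells, beside 31.8% and 6.11% of all genes. After compression 1 of 13 was higher in KO than in WT cells, COX1, the catalytic subunit of complex IV, at 9092, 8458 and 13713 CPM against 4639, 4340.1 and 6332 CPM (1.03 ± 0.22; edgeR adjusted p = 0.0447), where 0.789% of all genes were called. The count of 1 went to 0 without KO control replicate 1 or 2, KO compressed replicate 3, any WT compressed replicate or WT control replicate 3, and it was 6 without WT control replicate 1, 8 without KO compressed replicate 2, 8 with DESeq2, 0 with each limma fit and with the replicate number as a block, and 12 without the 3 libraries that stood apart. Of all genes 1.4% were called without WT control replicate 1 and 2.59% without KO compressed replicate 2. With DESeq2 2.44% were called, and without the 3 libraries 5.37%. All KO compressed libraries lay above all WT compressed libraries for COX1, while COX4I1, its nuclear-encoded partner, overlapped between the same groups. RNA was captured by its poly(A) tail, so the counts of mitochondrial transcripts also depend on how they are polyadenylated. The part of this in the values was not tested.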

How the data were processed

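The 11 RNA libraries of MDCKII cells, in 4 groups, were made after poly(A) capture; groups and replicate numbers came from the titles. Per the submitters' processing notes, CASAVA, FastQC and HISAT2 2.0.5 were used with the CanFam3.1 build. Not given in the sources used here are gene counter, annotation release and strand setting, so reads of overlapping or antisense genes cannot be told apart. The authors deposited raw counts, as whole numbers, and FPKM values, which equal the counts divided by the gene length they give and by an effective library size of 0.964 to 1.049 times the total. The table held 0 rows without a gene identifier, while some rows, as described above, had no gene name.

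The members and gene lists were chosen with earlier results of these data known. Tests used edgeR 4.0.16 under R 4.3.3 (filterByExpr, TMM scaling, 1 quasi-likelihood fit of the 4 groups, two-sided, Benjamini-Hochberg adjustment over 13560 genes, threshold 0.05). CPM are TMM-scaled. Totals of 10420214 counts and more leave rows under about 1 CPM with few reads. The scripts were tested on simulated data. Replicates were distinct (lowest chi-square per gene 5.86). Subunits on unnamed rows, and genes of the lists without a name, were found through the UniProt match in the table's description column.

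The values of 1 member of complex I, which enters the counts and medians over all members, and of 1 marker gene are not reported here, and the figures leave that member out. Members were named by a rule: those called, the smallest p of each complex in each comparison, the highest and lowest FPKM of each complex, isoform pairs, and all SDH genes. Of the lists it took LMNA and, in each comparison, up to 2 called genes a list or the smallest p where none was called. NDUFS3, NDUFS5, NDUFS7, NDUFS8, NDUFV1, UQCRFS1, UQCRC1, UQCRC2, COX7A2L, ATP5F1, the members on chromosome 20, the unnamed rows beyond 2 and the list genes GABPA and TFB2M were named after their values were seen. Other settings tried were RLE scaling, scaling by library size alone, DESeq2 1.42.0, other filters, a robust fit, the groups compared alone, limma 3.58.1 on log2(FPKM + 1) and log2(FPKM + 0.1), a replicate block and leaving out each library. Fits without 3 libraries, without mitochondrially encoded genes and with the rows of a subunit summed were added after the data were seen.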

Additional observations from a re-analysis of the deposited data

How the results depend on the processing

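The members called after compression in WT cells numbered 1 in the reported fit and 0 in each limma fit on FPKM (pseudocounts 1 and 0.1, and 1 with no filter), 5 with no filter on low counts, 5 with the groups compared alone, 6 with DESeq2, 3 with the rows of a subunit summed and 8 without the 3 libraries that stood apart. Leaving out 1 library at a time gave 0 to 7. The members' share was 9.80% with no filter, beside 9.62% of all genes, and 10.4% with the groups compared alone, beside 16.3%. It was 12.5% with DESeq2, beside 20%, and 16.7% without the 3 libraries, beside 26%. For the fit with summed rows no share of all genes is at hand, and in the reported fit 6.25% of all genes were called. The highest count with 1 library left out, without KO compressed replicate 2, was 14% of members beside 22.7% of all genes. The called members other than NDUFS1 were COX7C, NDUFA2 and NDUFS5 (higher) and ATP5D (lower) with no filter and with the groups compared alone, and ATP5SL besides with DESeq2. The adjusted p of NDUFS1 was 0.0617 to 0.0799 with limma. The titles do not say whether the replicate numbers pair the samples. Correlations of deviations between 15 same-numbered pairs ran from -0.349 to 0.201. Deviations from means of so few libraries are tied to each other, so these correlations cannot decide it. With a replicate block 0 members were called in WT cells, where NDUFS1 had an adjusted p of 0.114. In the other 4 comparisons 0 members were called under each of the alternatives run. The median member after compression in WT cells was -0.018 without the 3 libraries, and in the other alternatives, single libraries left out included, it lay between 0.06 and 0.28. The sign turned for SDHC in compressed KO cells, which was -0.042 in the reported fit: it was 0.085 without the 3 libraries, and -0.23 to 0.085 with 1 library left out. It also turned for COX7C, KO against WT after compression, which ran from -0.58 without KO compressed replicate 2 to 0.098 without WT compressed replicate 3, and for the COX8A interaction, which ran from -0.052 without WT control replicate 2 to 0.42 without WT control replicate 1. The causes were not tested. Over all genes the calls in WT cells ran from 0 (replicate block) to 3497 (without the 3 libraries), from 848 in the reported fit and 2476 with DESeq2. The other counts over all genes were 0 to 13 for compression in KO cells, 6 to 802 and 39 to 723 for KO against WT without and after compression, and 0 to 362 for the interaction.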
